A study of Arabidopsis thaliana with 12 samples.

Results

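The genes described here are 10 Arabidopsis thaliana loci of jasmonate synthesis and its storage protein output, chosen by name and locus identifier among the 28642 genes of the deposited tables. They are LOX2, AOS, AOC1, AOC2, AOC3, OPR3, JMT, JAR1, VSP1 and VSP2, and each was found once in the tables. The choice was made with earlier results of these data known. RNA came from leaves 1 and 2, taken 10 days after stratification, in a stage the labels call proliferation, from seedlings grown in vitro in 4 groups of 3 biological replicates. The groups were seedlings on Murashige and Skoog (MS) medium as control, on that medium with 25 mM mannitol (a sugar alcohol that lowers the water potential of the medium), with 0.1 µM NAA (naphthaleneacetic acid, an auxin made synthetically), and with both compounds at these doses. The sources used here give neither the accession nor the number of plants in each sample. By its title, the study asked how auxin signalling and the response to osmotic stress interact while leaves grow.

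The values that could be tied to groups are the authors' deposited p-values, 1 per gene for each of 3 comparisons with control (mannitol alone, NAA alone and both compounds together). The library columns carry running numbers that match no sample label, so they were not used, and levels, depth per library, replicate spread, fold changes and directions are not analysed here. To pass, a gene needed a p under 0.05 after Benjamini-Hochberg adjustment over all 28642 genes of the table. The sources used here do not say whether the deposited values were already adjusted. Below, unadjusted means that no adjustment was made here. The largest p that passes in the authors' deposited table is 0.00453 for mannitol, 0.00636 for NAA and 0.0131 for the combined treatment. A passing gene differs from control by the authors' test, which the sources used here do not name, and nothing below says whether it was higher or lower. The 3 comparisons share the control samples.

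Jasmonates are lipid hormones made from linolenic acid of chloroplast membranes. A lipoxygenase (LOX2) adds oxygen to the fatty acid, allene oxide synthase (AOS) and allene oxide cyclase (AOC) turn the product into oxophytodienoic acid, and after transfer to the peroxisome the reductase OPR3 and rounds of beta-oxidation give jasmonic acid. JAR1 joins jasmonic acid to isoleucine, which makes the form that the receptor COI1 perceives, and JMT makes the volatile methyl ester. In leaves jasmonates are known for wound and herbivore defence and for restraining growth, and the vegetative storage protein genes VSP1 and VSP2 are widely used as readouts of the pathway.

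Among the members, the AOC genes and the VSP genes lie close together on their chromosomes. By the RefSeq annotation of TAIR10.1, AOC1 (AT3G25760, chr3:9403779-9405338), AOC2 (AT3G25770, chr3:9406669-9408071) and AOC3 (AT3G25780, chr3:9409160-9411090) are neighbours on the plus strand, with 1330 bases between AOC1 and AOC2 and 1088 between AOC2 and AOC3. VSP2 (AT5G24770, chr5:8500468-8502224) and VSP1 (AT5G24780, chr5:8507590-8509201) are neighbours on the minus strand, 5365 bases apart, with 0 protein-coding genes between them. The other members are LOX2 (AT3G45140, chr3:16525245-16529352, plus strand, 7 exons), AOS (AT5G42650, chr5:17097564-17099595, minus strand, 1 exon), OPR3 (AT2G06050, chr2:2359114-2362375, minus strand, 5 exons), JMT (AT1G19640, chr1:6788885-6791919, minus strand, 4 exons) and JAR1 (AT2G46370, chr2:19033586-19036683, plus strand, 5 exons). None of the 10 genes overlaps another annotated gene on either strand (0 overlaps each), so a wrong strand setting in counting could not mix them with an annotated antisense partner.

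The coding sequences of VSP1 and VSP2 are identical at 90.4% of 795 aligned bases, and the longest run they share is 54 bases. Their starts are shown because these near-copies gave very different p-values. They run from the start codon, with capitals for bases that differ or that the other gene lacks:
VSP1: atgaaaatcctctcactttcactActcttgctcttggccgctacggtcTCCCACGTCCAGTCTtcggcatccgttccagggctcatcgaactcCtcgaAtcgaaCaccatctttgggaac
VSP2: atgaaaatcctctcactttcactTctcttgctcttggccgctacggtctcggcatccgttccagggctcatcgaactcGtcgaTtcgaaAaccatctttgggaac
In this stretch 4 bases are substituted and 15 bases of VSP1 are absent from VSP2. Reads of such pairs can be assigned to the wrong copy, and the sources used here do not say how reads with several matches were treated. The values of VSP1 and VSP2 are uncertain to that extent.

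The cyclase genes AOC1 and AOC2 are identical at 90.3% of 762 aligned coding bases. AOC3 is 82.7% identical to AOC1 and 82.4% identical to AOC2. The longest run shared is 47 bases between AOC1 and AOC2, 73 between AOC1 and AOC3 and 50 between AOC2 and AOC3. The last 120 coding bases, aligned without gaps, are shown with capitals at the 31 positions where at least one of the genes differs:
AOC1: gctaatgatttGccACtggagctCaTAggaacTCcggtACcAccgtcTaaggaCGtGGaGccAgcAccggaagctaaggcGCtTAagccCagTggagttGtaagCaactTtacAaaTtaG
AOC2: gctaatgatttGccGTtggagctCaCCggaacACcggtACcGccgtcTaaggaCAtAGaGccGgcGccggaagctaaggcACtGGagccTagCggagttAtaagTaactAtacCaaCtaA
AOC3: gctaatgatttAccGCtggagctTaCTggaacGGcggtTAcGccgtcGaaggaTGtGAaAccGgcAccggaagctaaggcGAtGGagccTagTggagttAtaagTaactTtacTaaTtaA
The tails of the 3 genes thus differ at many sites. Reads of the 3 cyclase genes can also be assigned to the wrong copy, so their values are uncertain too. AOC3 is less like the other cyclase genes than VSP1 is like VSP2, and the extent was not measured.

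With both compounds, 8 of the 10 genes passed, against 26.3% of all genes. Because the 10 were chosen with earlier results of these data known, this share is not an independent measure of an excess. Every member acting from the lipoxygenase to the reductase was among them (LOX2, AOS, AOC1, AOC2, AOC3 and OPR3), together with JMT and VSP2. JAR1 and VSP1 did not pass. Outside the 10, the lipoxygenase genes LOX3 and LOX4 and the cyclase gene AOC4 did not pass with both compounds. The median deposited p was 6.15e-05 for the 10 genes and 0.293 for all genes in the authors' deposited table. Among the 21838 genes with a deposited p under 1 in this comparison, adjusted over those genes, 36.4% passed and the 8 members did too. The matching shares for mannitol and for NAA alone were 12.9% and 18.9%, with 0 and 4 members passing.

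Mannitol alone gave 0 passing members of 10, against 9.07% of all genes by the same Benjamini-Hochberg rule in statsmodels. At an unadjusted p under 0.05, 5 of the 10 fell below the limit, against 17.9% of all genes. These were AOS, AOC1, AOC3, JMT and VSP2. The same unadjusted limit took in 5 members under NAA, where it takes in 21.8% of all genes, and 8 with both compounds, against 33.9%. NAA alone gave 4 passing members (LOX2, AOS, JAR1 and VSP2), against 12.8% of all genes. The median deposited p of the members was 0.117 under mannitol and 0.116 under NAA, against 0.459 and 0.406 for all genes in the authors' deposited table. Whether any gene differed between the combined treatment and a single one was not tested, since the deposited p-values compare each with control.

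**Figure D1:**
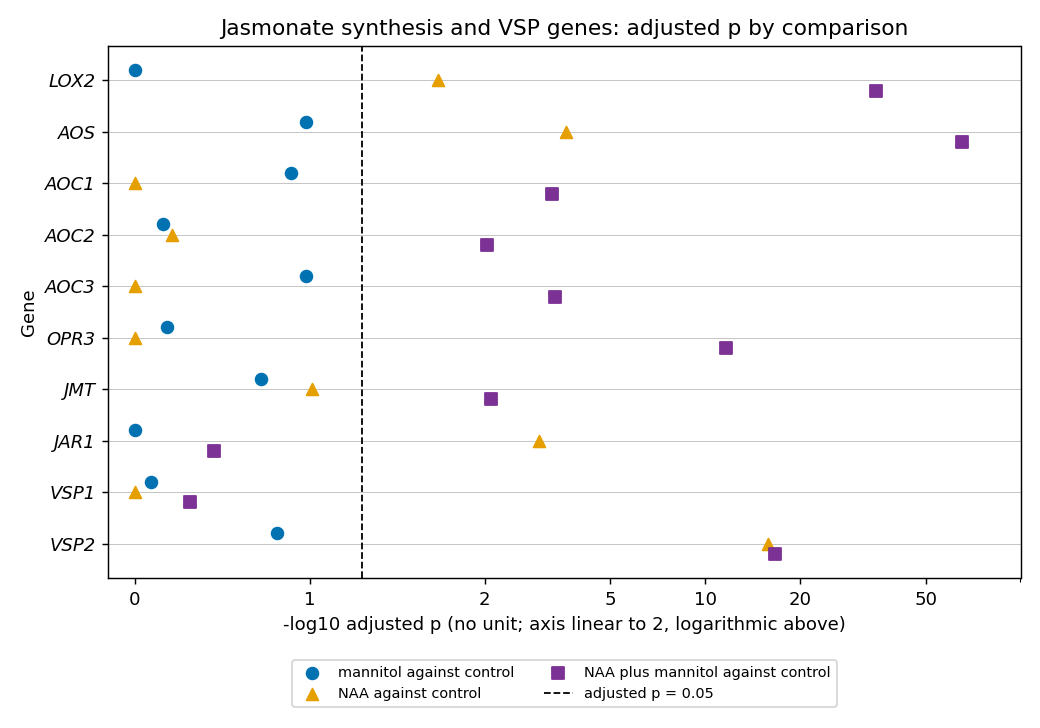
The horizontal axis gives the negative log10 of the adjusted p (linear to 2, logarithmic above) for each of the 10 genes, with a circle for mannitol, a triangle for NAA and a square for NAA plus mannitol, each against control, and a dashed line at an adjusted p of 0.05. All circles lie left of the line, the triangles of LOX2, AOS, JAR1 and VSP2 lie right of it, and all squares but those of JAR1 and VSP1 lie right of it.

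With both compounds the entry steps of the pathway, AOS and LOX2, had the smallest p-values of the 10 genes, while under NAA VSP2 had the smallest. For AOS, which commits the oxygenated fatty acid to the jasmonate branch, the authors' deposited table gives 0.012 for mannitol, 9.65e-06 for NAA and 1.24e-67 for the combination. After adjustment these are 0.105, 0.000236 and 8.04e-66. With both compounds 1.55% of all genes had a p as small, against 4.09% under NAA and 11.3% under mannitol. The share with both compounds counts 423 genes listed at 0, and a rounded 0 need not be smaller than the value of AOS. LOX2, the chloroplast lipoxygenase of the wound response, stood at 0.663, 0.00185 and 2.84e-37 in the authors' deposited table for mannitol, NAA and both. Its adjusted values are 1, 0.0186 and 1.71e-35. LOX2 thus passed under NAA and with both compounds, and under mannitol 60% of all genes had a p as small as its own.

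The cyclase genes lay far from these extremes. With both compounds AOC1 (adjusted p = 0.00054), AOC3 (0.000466) and AOC2 (0.00915) passed, and 12.3%, 12.1% and 18.9% of all genes had p-values as small in the authors' deposited table. Under NAA the deposited p was 0.997 for AOC1, 0.705 for AOC3 and 0.217 for AOC2 in the authors' deposited table. Under mannitol AOC1 (0.0156) and AOC3 (0.012) were below an unadjusted 0.05 in the authors' deposited table while AOC2 (0.226) was not, and their adjusted values were 0.128, 0.105 and 0.689. The p-values of AOC1 and AOC3 were thus close to each other in mannitol and in the combined treatment. By coding sequence AOC1 is nearer to AOC2. Close p-values do not show like changes, since directions and fold changes are not analysed here. AOC4, the family member on another chromosome, just missed with both compounds (adjusted p = 0.0507 from the authors' deposited table). Its deposited p was 0.0115 under mannitol and 0.403 under NAA in the authors' deposited table.

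OPR3, the peroxisomal reductase, passed with both compounds at an adjusted p of 2.31e-12 from the authors' deposited table. Its deposited p was 0.207 under mannitol and 0.79 under NAA in the authors' deposited table, so neither compound alone brought it near the limit. Of all genes, 2.82% had a p as small with both compounds, 31.6% under mannitol and 66.8% under NAA.

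The genes of the enzymes that act on jasmonic acid itself passed in different comparisons, and they were not tested against each other. JAR1, the conjugating enzyme, passed under NAA (adjusted p = 0.00105 from the authors' deposited table). Its adjusted p was 1 under mannitol and 0.353 with both compounds, from deposited values of 0.974 and 0.153 in the authors' deposited table. JMT, the methyltransferase, passed with both compounds (adjusted p = 0.00807 from the authors' deposited table). Under mannitol (0.0274) and NAA (0.0154) its deposited p was below an unadjusted 0.05 in the authors' deposited table, and adjusted it was 0.19 and 0.0973.

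Of the storage protein genes VSP2 passed under NAA and with both compounds, and VSP1 did not pass. VSP2 had nearly the same deposited p under NAA, 5.86e-19, as with both compounds, 5.23e-19, in the authors' deposited table. Adjusted, these are 1.36e-16 and 2.54e-17. Under NAA 0.429% of all genes had a p as small, and with both compounds 2.06%. These shares count the 74 and 423 genes listed at 0, whose order against VSP2 is not known. Under mannitol VSP2 stood at 0.0203 in the authors' deposited table and at 0.154 after adjustment. VSP1 stood at 0.36, 0.749 and 0.227 in the authors' deposited table for mannitol, NAA and both, and at 0.803, 1 and 0.482 after adjustment. VSP1 was the one gene of the 10 that passed in 0 of the 3 comparisons.

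The sequence before the gene start was read for the members because MYC transcription factors, which act below COI1, bind the G-box. In the 250 bases before each start, read on both strands, CACGTG (the G-box) was present in 1 of 10 members, AOS, against 6.45% of 28008 genes. AACGTG (a T/G-box variant also bound by MYC factors) was present in AOC1 and VSP1, against 7.54% of genes. TGTCTC (the auxin response element) was present in AOC2 and VSP2, against 10.9%. AGCCGCC (the GCC box of ethylene response factors) was in 0 of 10 members and 0.593% of genes. These motifs overlap nowhere in the members. Capitals mark the matches in the windows of the entry enzymes and the storage pair, on the gene's own strand and ending at the base before the start in TAIR10.1:
AOS, chr5:17099596-17099845, minus strand: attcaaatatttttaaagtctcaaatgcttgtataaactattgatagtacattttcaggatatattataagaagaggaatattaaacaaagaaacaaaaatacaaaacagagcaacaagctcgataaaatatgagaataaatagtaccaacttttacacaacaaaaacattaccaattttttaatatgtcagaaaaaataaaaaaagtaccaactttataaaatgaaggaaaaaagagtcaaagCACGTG
LOX2, chr3:16524995-16525244, plus strand: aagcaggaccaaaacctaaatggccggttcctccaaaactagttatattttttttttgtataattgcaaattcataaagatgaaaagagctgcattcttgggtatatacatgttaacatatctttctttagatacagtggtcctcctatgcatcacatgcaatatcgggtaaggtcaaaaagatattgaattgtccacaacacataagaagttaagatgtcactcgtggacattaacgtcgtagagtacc
VSP1, chr5:8509202-8509451, minus strand: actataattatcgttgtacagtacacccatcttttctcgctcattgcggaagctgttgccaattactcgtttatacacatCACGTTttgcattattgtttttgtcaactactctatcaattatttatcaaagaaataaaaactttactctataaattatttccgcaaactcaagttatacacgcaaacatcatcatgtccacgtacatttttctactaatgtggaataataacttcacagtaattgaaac
VSP2, chr5:8502225-8502474, minus strand: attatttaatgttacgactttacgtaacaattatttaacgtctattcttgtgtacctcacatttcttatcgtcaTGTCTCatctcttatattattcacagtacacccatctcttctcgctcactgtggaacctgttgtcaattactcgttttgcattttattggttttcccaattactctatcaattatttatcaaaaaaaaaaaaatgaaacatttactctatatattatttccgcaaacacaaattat

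In VSP1 the match reads CACGTT, the reverse complement of AACGTG, 170 to 165 bases before the start. In VSP2 the TGTCTC match lies 176 to 171 bases before the start, and in AOS the G-box ends at the base before it. The VSP windows still resemble each other where they align: 163 of the 250 bases of each face a base of the other, and 147 of these are identical. The remaining bases face gaps and are not in that count. A run of 23 bases, tactctatcaattatttatcaaa, occurs in both, 142 to 120 bases before the start of VSP1 and 76 to 54 before that of VSP2. AOC1 and AOC2 share a run of 19 bases, tgtagtttagggaccggcc, 117 to 99 bases before the start of AOC1 and 19 to 1 before that of AOC2. A match describes the letters of a window and shows no binding, and a window without one may have it farther away.

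**Figure D2:**
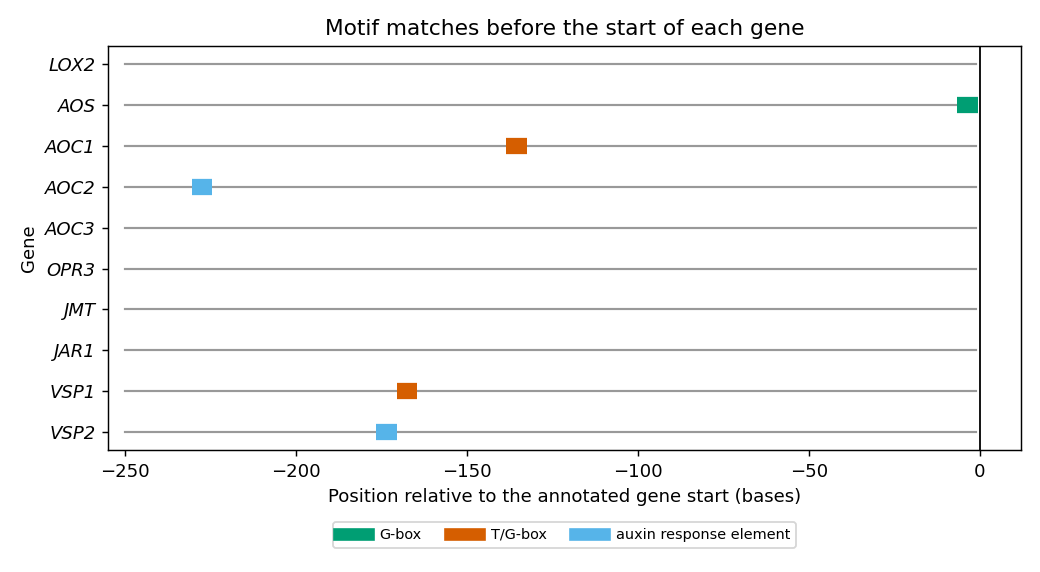
Each line is the window of 250 bases before the annotated start of a gene, with position in bases from the start on the horizontal axis and blocks for the G-box, the T/G-box and the auxin response element on either strand. Matches are present in AOS, AOC1, AOC2, VSP1 and VSP2, and the windows of LOX2, AOC3, OPR3, JMT and JAR1 hold none of the motifs searched.

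Other genes of the pathway were followed in 6 lists with 54 loci in all, also chosen with earlier results of these data known. With both compounds 18 of the 54 passed (33.3%, against 26.3% of all genes), with NAA 13 (24.1%, against 12.8%) and with mannitol 9 (16.7%, against 9.07%). The median deposited p of the 54 was 0.039, 0.13 and 0.125 in the authors' deposited table for these treatments. Among genes with a deposited p under 1, adjusted over those genes, 36.4% passed with both compounds, 18.9% under NAA and 12.9% under mannitol. The 54 genes were not counted by that rule.

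Of 15 further synthesis genes, 6 passed with both compounds (40%, against 26.3% of all genes). Under NAA 3 passed (20%, against 12.8%) and under mannitol 1 did (6.67%, against 9.07%). The desaturases that supply linolenic acid, FAD3 of the endoplasmic reticulum (adjusted p = 1.9e-14) and FAD7 (0.00047) and FAD8 (0.00178) of the chloroplast, all passed with both compounds by the adjusted values from the authors' deposited table. In the same adjustment of the authors' deposited table FAD3 also passed under mannitol (adjusted p = 0.0449) and NAA (0.0197), and FAD7 under NAA (0.035). Of the beta-oxidation enzymes, the acyl-CoA oxidase gene ACX1 (adjusted p = 9.8e-15) and AIM1 (4.62e-14) passed with both compounds, as did OPCL1 (0.0163), which activates the precursor for beta-oxidation, all from the authors' deposited table. The peroxisomal importer gene PXA1 passed under NAA (adjusted p = 0.0041 from the authors' deposited table). LOX3 and LOX4, wound lipoxygenase genes, did not pass with both compounds (adjusted p = 0.0951 and 0.119 after adjustment of the authors' deposited table). FAD8 and OPCL1 fall outside the rule for naming genes and were chosen after their values were seen.

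Among 5 related enzymes outside the main route (the lipoxygenases LOX1 and LOX5, the reductases OPR1 and OPR2 and the hydroperoxide lyase HPL1), LOX5 (adjusted p = 0.000832) and OPR2 (0.048) passed with both compounds, and OPR2 passed under mannitol (0.00457), from the authors' deposited table after adjustment. Under NAA 0 of 5 passed after adjustment in statsmodels (12.8% of all genes), with 2 at an unadjusted p under 0.05 (21.8% of all genes). The share of the 5 that passed was 40% with both compounds (all genes 26.3%) and 20% under mannitol (9.07%). Of 6 turnover genes, CYP94C1, which oxidises jasmonoyl-isoleucine, passed in all 3 comparisons, with adjusted p-values of 0.0024 for mannitol, 2.99e-11 for NAA and 0.000111 for the combination from the authors' deposited table. IAR3, an amidohydrolase that cleaves the conjugate, passed with both compounds (adjusted p = 3.15e-06 from the authors' deposited table). Of the 6 turnover genes, 33.3% passed with both compounds (all genes 26.3%), 16.7% under NAA (12.8%) and 16.7% under mannitol (9.07%). CYP94B1 stood at 0.317 in all 3 comparisons, a value that 1235, 1290 and 1218 genes hold under mannitol, NAA and both in the authors' deposited table. CYP94B3, the other well-known hydroxylase of the conjugate, was listed at 1 in the authors' deposited table.

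In perception and signalling, 4 of 7 genes passed under NAA, 4 with both compounds and 2 under mannitol. These shares are 57.1% under NAA (all genes 12.8%), 57.1% with both compounds (26.3%) and 28.6% under mannitol (9.07%). NINJA, the adaptor that links JAZ proteins to corepressors, passed in all 3, at adjusted p-values of 0.00741 for mannitol, 1.72e-10 for NAA and 0.0165 for the combination from the authors' deposited table. The corepressor gene TPL passed under NAA (adjusted p = 0.00644) and with both compounds (2.04e-05), and so did MYC3 (0.0221 and 0.00619), from the authors' deposited table. MYC4 passed under NAA (adjusted p = 0.000898), and JAV1, a repressor of defence, under mannitol (0.00839) and with both compounds (0.0163), from the authors' deposited table. The receptor gene COI1 did not pass, with adjusted p-values of 0.711, 0.0795 and 0.866 for mannitol, NAA and both from the authors' deposited table. MYC2 did not either (0.669, 0.167 and 0.0584).

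The JAZ genes encode the repressors that COI1 removes. They passed in 33.3% of cases under NAA (all genes 12.8%), in 16.7% with both compounds (26.3%) and in 8.33% under mannitol (9.07%). Of 12, 4 passed under NAA (JAZ1 at an adjusted p of 8.86e-08, JAZ5 at 0.00237, JAZ2 at 0.0152 and JAZ9 at 0.0409), 2 with both compounds (JAZ11 at 0.011 and JAZ3 at 0.0211) and 1 under mannitol (JAZ4 at 0.00289), all from the authors' deposited table. Of 9 response genes, 3 passed under mannitol (33.3%, against 9.07% of all genes): the transcription factor genes ORA59 (adjusted p = 0.00708) and ERF1 (0.0224) and the defensin gene PDF1.2 (0.0126), from the authors' deposited table after adjustment. The related defensin gene PDF1.2b did not pass under mannitol (adjusted p = 0.408 from the authors' deposited table). PDF1.2 has near copies, so its value is uncertain in the way of the VSP pair. With both compounds ORA59 (adjusted p = 5.41e-05) and NAC055 (0.000481) passed, and under NAA NAC019 (0.0377) did, from the authors' deposited table. These are 22.2% of the 9 response genes with both compounds (all genes 26.3%) and 11.1% under NAA (12.8%).

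**Figure D3:**
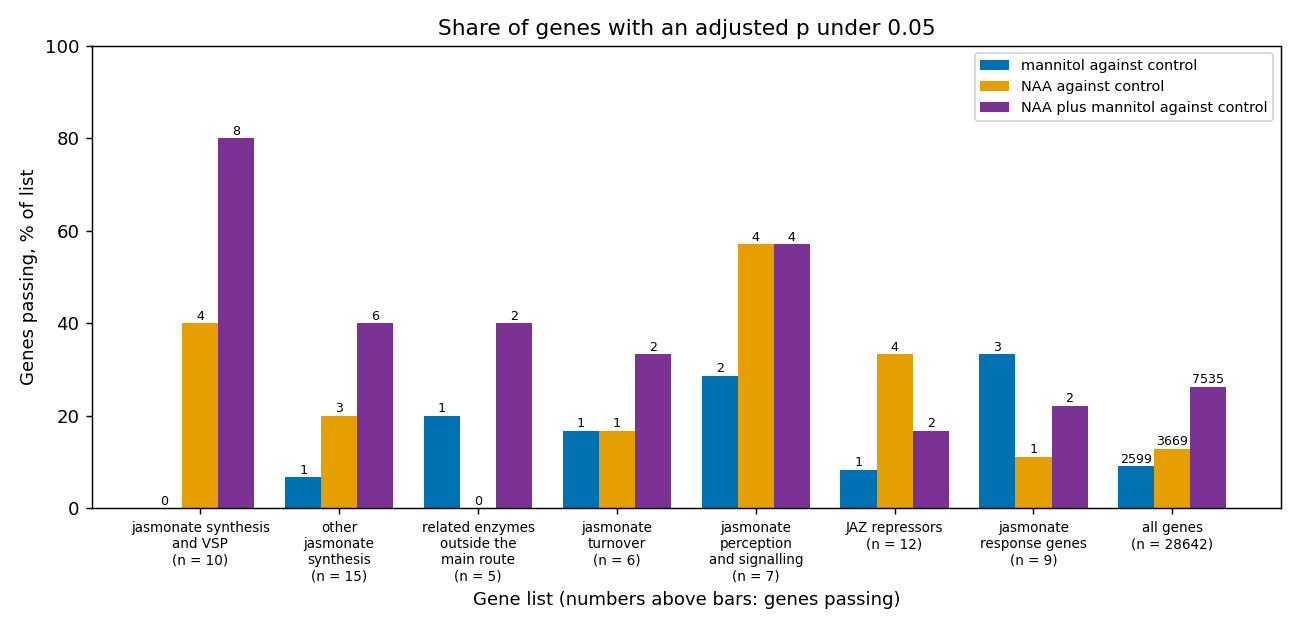
Bars give the percentage of each gene list that passed (vertical axis, from 0 to 100%) in the comparisons of mannitol, of NAA and of both with control, with the number of genes passing above each bar and all 28642 genes at the right. The synthesis and VSP genes stood at 0%, 40% and 80%, against 9.07%, 12.8% and 26.3% of all genes. All lists were chosen with earlier results of these data known.

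Markers of leaf cell types also passed in places, though not all markers of any type did. Of mesophyll, guard cell and vascular markers 2 of 3 each passed with both compounds, and of trichome markers 1 of 3 (26.3% of all genes). RBCS1A of mesophyll, FAMA of guard cells, GL1 and GL3 of trichomes and SUC2 of vascular tissue passed in 0 of the 3 comparisons. With both compounds 7 of 17 marker genes passed (41.2%, against 26.3% of all genes), namely KAT1 (adjusted p = 1.85e-06) and MYB60 (6.94e-06) of guard cells, GL2 (0.000141) of trichomes, LHCB1.3 (0.0104) and CA1 (0.0105) of mesophyll, and XCP1 (0.0186) and ATHB8 (0.0455) of vascular tissue, from the authors' deposited table. Under mannitol, where 9.07% of all genes passed, 1 of 17 did (KAT1, adjusted p = 0.0399 from the authors' deposited table), and under NAA 0 of 17 did after adjustment in statsmodels (12.8% of all genes), with 3 at an unadjusted p under 0.05, against 21.8% of all genes. Root (0 of 2) and shoot meristem (0 of 3) markers did not pass in any comparison, and 0 of these had an unadjusted p under 0.05. For PLT1, STM and CLV3 every p in the authors' deposited table was 0.317 or the largest possible, values that many genes hold. Levels are not analysed here, so these markers cannot tell whether root or meristem tissue was present. The part of cell type makeup in the values of the jasmonate genes was not tested. In whole leaves fewer cells of a type and less RNA per cell cannot be told apart.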

How the data were processed

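RNA of 12 leaf samples (4 groups of 3) was sequenced from stranded mRNA libraries, per the labels' protocols, and the submitters' processing notes name build TAIR10. The sources used here give neither aligner, counting nor test. The authors' deposited p-values were used as listed for each of the 3 comparisons, per the file headers, which call them detection p-values and do not say whether they are adjusted. A further 24 library columns match no sample label and were not used, so the planned count model was replaced by the deposited p-values, and depth and precision are not analysed here. P-values were adjusted by Benjamini-Hochberg with statsmodels 0.14.6 (checked on simulated p-values).

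Genes were named by rule: all 10 members, and of each other list the passing genes, at most 4 per comparison, plus up to 3 others per list where their role was needed. Marker genes were named after their values were seen. The members and lists were chosen with earlier results of these data known. Among loci listed for hydroxylation of jasmonic acid, 4 were left out because the reference did not pair their symbols. Of 28642 identifiers 28009 matched RefSeq's TAIR10.1, an update of TAIR10 that keeps its nuclear chromosomes, and all sequences and coordinates are from it. Coding sequences (the longest per gene) were aligned end to end with Biopython 1.88. Motifs and windows were chosen after the p-values were seen.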

Additional observations from a re-analysis of the deposited data

How the results depend on the processing

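The count models planned for the library columns (edgeR and DESeq2, other scalings, filters and leaving out each library) were not run, because those columns were not used. No paired analysis was possible because the deposited p-values carry no replicate numbers. Of the 10 genes, 5 were below an unadjusted 0.05 under mannitol against 0 after adjustment, and under NAA and both compounds 5 and 8. Bonferroni adjustment left 1 under NAA (VSP2, against 3.31% of all genes) and 4 with both compounds (LOX2, AOS, OPR3 and VSP2, against 8.46%). Adjustment over genes with a p under 1 changed none of the 30 calls of a member in a comparison. Chosen after seeing the data, each p was turned into a normal z, which was then read as a Student's t value (4 degrees of freedom). Unadjusted, this gave the same 12 passing calls of 30 at 0.05, where 9.48%, 12.5% and 22.6% of all genes pass for mannitol, NAA and both. Adjusted over all genes, it left 0 members in each comparison, and 0 genes in all, when genes listed at 0 take the lowest z that a rounded 0 allows, and 0 under NAA and 3 with both compounds when they take the highest, against 0.29% and 2.13% of all genes. The calls thus rest on the unnamed reference distribution of the authors' test. What depth limits is not analysed here.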
